A study of Homo sapiens with 9 samples.

Results

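The IL6 locus was examined in Hi-C maps of growing fibroblasts and of fibroblasts in RAS-induced senescence (RIS). It was defined by position alone, with no measured value, as the IL6 gene at chr7:22765503-22771621 on hg19 together with the 40 kb bins around it. These were the 63 bins of chr7:21480001-24000000, taken from 66821 bins with enough coverage, and IL6 was 1 of 20098 protein-coding genes in the annotation. The whole gene, on the plus strand, lies in the single bin chr7:22760001-22800000, called the IL6 bin here. The antisense transcript IL6-AS1 overlaps IL6 in that bin, and the longest annotated form of STEAP1B, on the minus strand, also starts there. A value of the IL6 bin therefore belongs to all of these transcripts.

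IL6 encodes interleukin-6, a secreted cytokine that signals through its receptor IL6R and the shared subunit IL6ST to JAK kinases and STAT3. It is a leading component of the senescence-associated secretory phenotype, in which arrested cells release cytokines, chemokines and proteases. NF-kB and C/EBP beta, acting downstream of interleukin-1, are well known to bind in front of the gene. Hi-C counts ligated pairs of DNA fragments. It shows which stretches of a chromosome lie near each other, where domains of dense contact begin and end, and whether a stretch belongs to the open A or the closed B compartment. It does not measure transcription.

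All libraries were made from IMR90 cells, a human lung fibroblast line, at passage 20-25 after stable infection with ER:HRAS(G12V), an oncogenic HRAS fused to the oestrogen receptor. The 3 growing libraries were not given 4-hydroxytamoxifen (4OHT), and the 2 RIS libraries came from cells given 100 nM 4OHT for 6 days. Growing cells thus carried the same construct without its activating drug, and growing replicate 3 alone also carried an MSCV vector. The labels do not say whether the infected cells were a pool or a clone, or whether libraries came from separate cultures, so p-values measure the spread between libraries only. A population map also cannot tell a contact made in fewer cells from a contact made less often in each cell.

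Growing libraries held between 154318975 and 180775297 recovered contacts, RIS replicate 1 held 109967506 and RIS replicate 2 held 150689982. The IL6 bin itself took part in 3949, 4301 and 4675 contacts in the growing libraries, taken in replicate order here and below, against 2807 and 3888 in the RIS libraries. Its coverage was 1.01 to 1.08 times that of the median bin in the 5 libraries. By the alignment summary of the study, growing replicate 3 and RIS replicate 2 had many duplicate reads and the other 3 libraries had few. Main differences are therefore also given within each of these duplicate classes. With many duplicates the difference is RIS replicate 2 minus growing replicate 3, the library with the MSCV vector. With few it is RIS replicate 1 minus the mean of growing replicates 1 and 2. Each class thus rests on a single RIS library and is given as a description.

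Sequences of the locus are shown for where its DNA was cut and for what lies in front of the gene. DNA was cut with HindIII, whose site is AAGCTT. The nearest site before the IL6 start is printed with its flanks, 5′ to 3′ on the plus strand of GRCh37, which is the same assembly as hg19, with the HindIII site in capitals. It lies within the longest annotated form of STEAP1B, outside its exons, and in the bin before the IL6 bin.

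HindIII site upstream of the IL6 start, chr7:22758459-22758488: tctttccttaaaAAGCTTtgtgatcaattg

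The IL6 bin held 12 HindIII sites, the same as the median over all bins. The stretch before the RefSeq start of IL6, chr7:22766569-22766765, is shown because it carries the letters of the inducers' binding sites. It ends 54 bases before that start, at chr7:22766819, because an annotated exon begins beyond it. The gene span given above begins farther upstream, at chr7:22765503, with the longest extent in GENCODE, so the stretch lies inside that span and inside the longest form of STEAP1B. Capitals mark first the letters of a C/EBP site and then those of an NF-kB site.

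IL6 upstream stretch: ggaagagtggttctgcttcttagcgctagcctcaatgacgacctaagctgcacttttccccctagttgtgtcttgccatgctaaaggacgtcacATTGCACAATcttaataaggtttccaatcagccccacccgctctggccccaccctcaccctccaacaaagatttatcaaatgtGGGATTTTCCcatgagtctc

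Counted back from the start, the C/EBP letters cover bases 156 to 147 and the NF-kB letters bases 73 to 64. Searched on both strands in the 250 bases before each of 35116 RefSeq gene starts, exactly these NF-kB letters were found in 0.0883% and these C/EBP letters in 0.0626% of the genes. The letters searched are those marked in IL6, so its match was set in advance. Sites with other letters were not counted, so these shares do not tell how common such sites are. The matches are letters in a window, and binding was not measured in the maps.

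In growing cells IL6 sat in a well separated domain on the A side of chromosome 7. On the mean growing map the domain covered chr7:22560001-23280000, 18 bins or 720 kb. Borders were local minima of the insulation score, which is the log2 mean contact across a bin between the 520 kb on either side of it, relative to the chromosome median. The upstream border, chr7:22520001-22560000, lay 240 kb before the IL6 bin, and the downstream border, chr7:23280001-23320000, lay 520 kb after it. Each of the 5 libraries had a minimum in both of these bins. The upstream border was among the deepest of the genome, since 1.15% of 5322 borders of the mean growing map had a lower score. The downstream border was ordinary, with 40.5% of borders below it.

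Letters of the CTCF core motif were searched in the border bins because CTCF is known to hold domain borders. The search used the 12-letter CTCF core, with its variable positions left free, on both strands. It occurred in 25% of bins, and was found once on each strand in the upstream border bin and not in the downstream border bin or in the IL6 bin. A bin inside the domain that was a border of the mean RIS map only, described below with the insulation scores, held 1 match on the minus strand. The matches are shown 5′ to 3′ on the strand of the motif, with the core in capitals.

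Upstream border, minus strand, chr7:22539867-22539896: cgcggggcgCCAGCAGGTGGCgctggacgc

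Upstream border, plus strand, chr7:22543979-22544008: gctctggcaCCAAGAGGTGGCaccaaacct

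Border of the mean RIS map, minus strand, chr7:22900519-22900548: agataaactCCATTAGGGGGCcttctagtc

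The minus-strand match of the upstream border lies in an exon of STEAP1B, a gene related to the STEAP metalloreductases, and the plus-strand match lies in an intron of its longest form. The match in the mean RIS border lies in an exon of SNHG26, a non-coding RNA gene. The matches are descriptions of the sequence, and CTCF binding was not analysed here.

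Contacts of the IL6 bin fell into a pattern that all 5 libraries shared, with a summit on each side of the gene. Values are the ratio of observed contact to that expected at the same distance on the chromosome. The summit downstream was the bin 320 kb away, chr7:23080001-23120000, just beyond the start of HYCC1, which encodes hyccin, a membrane lipid kinase partner. Its observed over expected contact with IL6 was 3.73, 3.61 and 3.27 for growing cells, against 3.22 and 3.08 for RIS cells. The growing values all lay above the RIS values, by a small margin. The summit upstream was a pair of bins just inside the domain border. The bin 160 kb upstream, chr7:22600001-22640000, had 3.23, 2.93 and 3.17 in growing libraries against 3.18 and 3.33 in RIS libraries. The bin 200 kb upstream, chr7:22560001-22600000, had 3.04, 3.01 and 3.07 against 3.28 and 3.10. No protein-coding gene starts in either of them. The bin directly upstream of IL6, in contrast, had a contact near 0.5 times the expected level, with 0.538, 0.515 and 0.467 in growing libraries against 0.604 and 0.494 in RIS libraries.

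**Figure D1:**
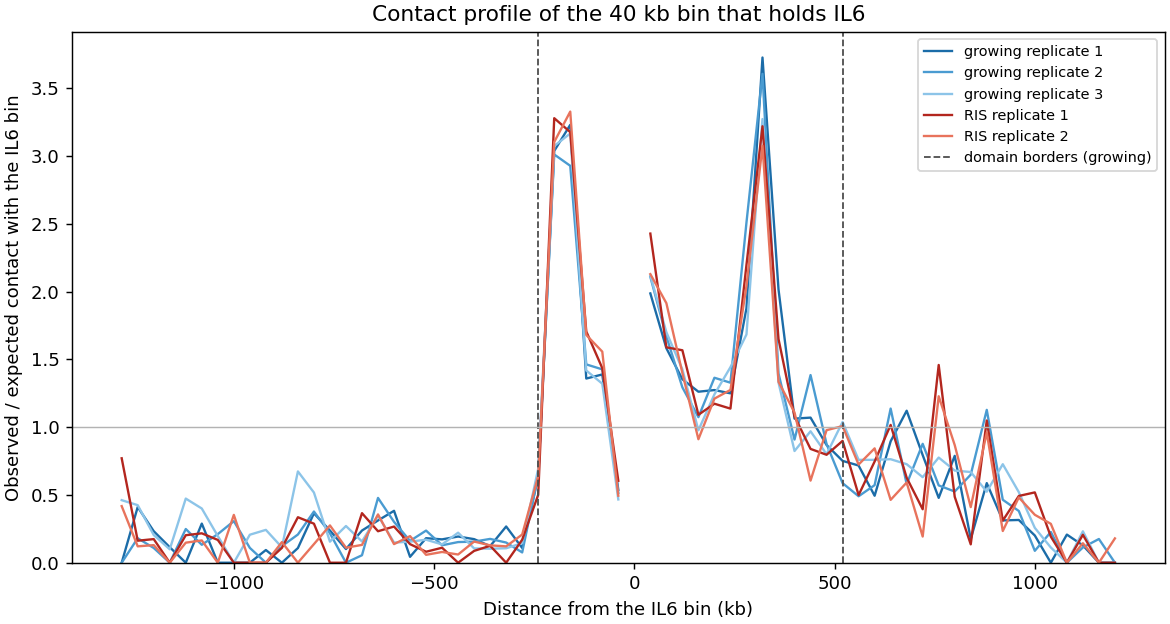
Observed over expected contact of the IL6 bin (y axis, ratio) against distance from it (x axis, kb) in the 3 growing libraries (blue) and the 2 RIS libraries (red). Dashed lines mark the borders of the domain on the mean growing map, and the profiles show summits at 160 to 200 kb upstream and 320 kb downstream in all 5 libraries.

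The 5 strongest partners at least 2 bins away were the same bins in growing and in RIS maps. They were the summit bins above, the bin with the HYCC1 start 280 kb downstream, with a mean of 2.02 in growing and 2.12 in RIS, and the bin with the TOMM7 start 80 kb downstream, with 1.65 and 1.75. TOMM7 encodes a small subunit of the mitochondrial protein import channel. The bin 320 kb downstream ranked highest in growing maps and the bin 160 kb upstream ranked highest in the mean of the RIS maps, although in RIS replicate 1 it stood below both the bin 200 kb upstream and the bin 320 kb downstream. None of these bins passed the test of all pairs given next.

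No pair of bins that included IL6 passed the main test of RIS against growing cells. The test, limma with an abundance trend on loess-normalised log2 values, covered 1860053 pairs up to 50 bins apart and called 0.00043% of them at an adjusted p under 0.05. Of the pairs of the IL6 bin, 28 were tested and 0 were called, with a smallest adjusted p of 0.284. A test that called so few pairs of the genome cannot show that contact with IL6 was unchanged. At an unadjusted p under 0.05, 2 pairs were higher and 2 were lower in RIS. Over all 1860053 pairs, 229118 were under the same unadjusted threshold by limma, so such pairs were common in the genome. The median log2 difference of the 28 pairs was 0.02 and their median standard error was 0.22. Within the IL6 domain 0 of 153 pairs were called, with 16 higher and 9 lower at an unadjusted p under 0.05, and within the whole window 0 of 1094, with 57 higher and 65 lower. That balance differed between fits. At the same unadjusted threshold voom, which changes both the input and the weighting, had 24 higher and 6 lower in the domain and 73 and 61 in the window. Scaling to the total alone, under which the median of all pairs was -0.12, had 13 and 13 in the domain and 37 and 98 in the window. Over all pairs, 258153 were under this threshold by voom and 257624 with scaling to the total alone. With voom on recovered contacts, which called 1.38% of all pairs, the IL6 bin also had 0 calls, with 3 pairs higher and 2 lower at an unadjusted p under 0.05. Its smallest adjusted p by voom, 0.051, was that of the bin 40 kb downstream, chr7:22800001-22840000, with a log2 difference of 0.32 ± 0.09 (SE) against 0.07 ± 0.06 (SE) by limma. The observed over expected contact there was 1.99, 2.11 and 2.12 in growing libraries against 2.43 and 2.13 in RIS, so RIS replicate 1 stood highest. This pair passed by voom without growing replicate 3 (adjusted p = 0.047) and with the duplicate class as a block (adjusted p = 0.018), and had an adjusted p of 0.144 to 0.453 by voom without any other library, fits chosen after seeing the data.

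The IL6 pairs with the smallest p by limma are given as values, since none passed. Contact with chr7:23520001-23560000, 760 kb downstream, was 0.478, 0.570 and 0.776 times the expected level in growing libraries against 1.46 and 1.23 in RIS libraries, a log2 difference of 1.14 ± 0.37 (SE, adjusted p = 0.284, limma). Its groups did not overlap. Contact with the neighbouring bin at 720 kb, which holds the start of IGF2BP3, an RNA-binding protein, went the other way. It had 0.794, 0.877 and 0.631 in growing libraries against 0.394 and 0.193 in RIS, a log2 difference of -1.31 ± 0.47 (SE, adjusted p = 0.318, limma). Each of these pairs rested on few contacts, with a mean scaled value of 10.1 and 7.21. The bin with the NUP42 start, a nuclear pore gene 440 kb downstream, had 1.07, 1.38 and 0.969 in growing libraries against 0.839 and 0.605 in RIS libraries, with an adjusted p of 0.399 by limma. The other pairs named by their rank in p were the bins 120 kb and 280 kb upstream and the bin 320 kb downstream. Their log2 differences were 0.26 ± 0.11, 0.90 ± 0.59 and -0.25 ± 0.12 (SE). The pair at 280 kb had a mean scaled value of 5.03, near the minimum of 5 for testing. It rested on 4, 3 and 6 contacts in growing libraries against 4 and 7 in RIS libraries (unadjusted p = 0.154, limma).

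The study defined enhancers from peaks of H3K27ac, a mark of active enhancers, and of open chromatin, and its Results also name H3K4me1. Its list of differential contacts names 2 such regions for IL6, both upstream, and enhancers not on that list were not examined. The listed contacts were selected on these same Hi-C libraries with smaller bins. They are therefore described here in 40 kb bins as no independent support. The farther region, chr7:22599222-22651765, touches the bins 200, 160 and 120 kb upstream, which include the upstream summit. Most of it lies in the bin 160 kb upstream, and the bin 200 kb upstream holds only its edge. Recovered contacts between IL6 and the bin 160 kb upstream were 212, 207 and 235 in growing libraries against 152 and 205 in RIS libraries. In the bin 120 kb upstream they were 108, 125 and 124 against 96 and 123, and the observed over expected contact was 1.36, 1.46 and 1.42 against 1.71 and 1.68. Of the bins touched by either region, this bin had the largest difference, 0.26 ± 0.11 on the log2 scale (SE). It holds a smaller part of the farther region and did not pass the test (adjusted p = 0.368, limma). The nearer region, chr7:22685774-22722544, touches the bins 80 and 40 kb upstream and lies mostly in the former. The log2 differences there were 0.11 ± 0.09 and 0.12 ± 0.11 (SE). Over the 5 bins that these regions touch, the limma differences ranged from 0.01 to 0.26, and none was called by limma or by voom. At 200 and 160 kb they were close to 0, and with a library left out they reached -0.04 and -0.03.

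**Figure D2:**
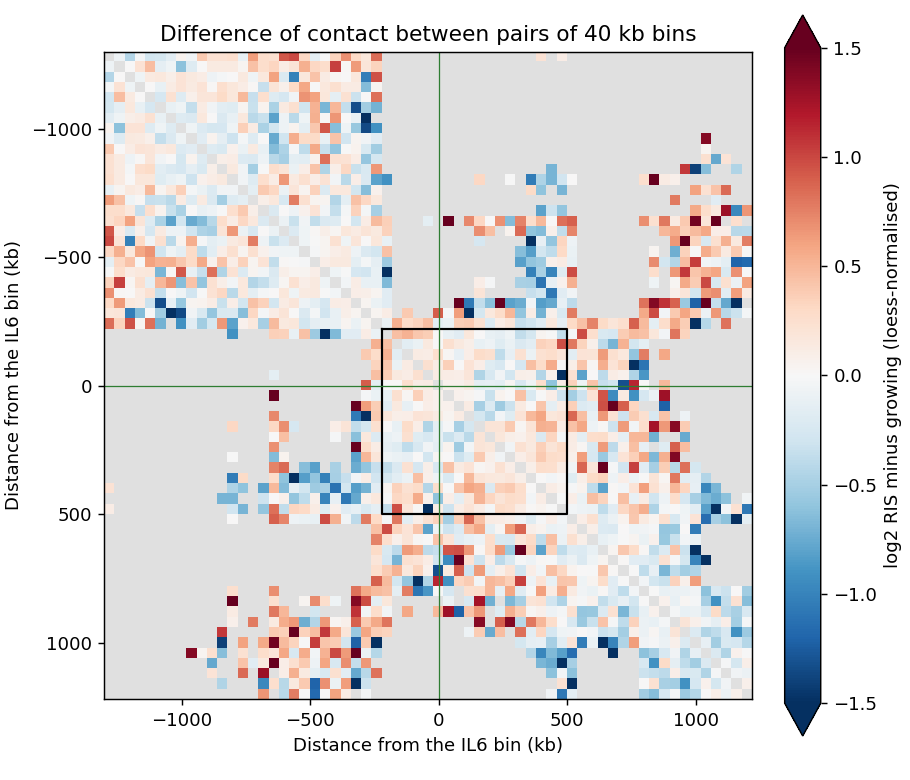
Log2 difference of contact, RIS minus growing, for each tested pair of 40 kb bins in the window (colour), with both axes in kb from the IL6 bin and green lines through it. Grey pairs were not tested, the black square is the IL6 domain, and 0 of the 1094 coloured pairs passed the test.

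The IL6 bin had less contact in RIS at distances of 440 to 2000 kb, whereas shorter distances showed no such difference past the test. Near contact, the log2 mean observed over expected contact with bins up to 400 kb away, was 0.50, 0.47 and 0.41 in growing libraries against 0.50 and 0.48 in RIS libraries, so the groups overlapped (difference 0.02 ± 0.04, SE, adjusted p = 0.702, limma over all bins, of which 32.1% were called). Middle contact, with bins 440 to 2000 kb away, was -1.88, -1.95 and -1.69 in growing libraries against -2.27 and -2.12 in RIS libraries. Both RIS values lay below every growing value. The difference was -0.35 ± 0.09 (SE, adjusted p = 0.034, limma), in a test that called 20.3% of all bins and 11.7% as lower in RIS. It was -0.35 within the libraries with few duplicates and -0.44 within those with many. This call rested on all libraries together: with any of the 5 left out, the adjusted p lay between 0.052 and 0.154, with a trend on the mean it was 0.161, on recovered contacts without balancing it was 0.071, and with the replicate number as a block it was 0.091 (difference -0.28). Growing replicate 3 alone has its number, so that block gives the same difference as leaving this library out. The middle contacts behind each value numbered 271, 299 and 345 in growing libraries against 152 and 213 in RIS libraries.

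Both sides of IL6, which together span the distances of the called middle contact, had lower values in RIS, with the larger difference upstream. Upstream, the summed observed over expected contact at 11 to 50 bins was 0.173, 0.158 and 0.238 in growing libraries against 0.127 and 0.112 in RIS libraries. This log2 difference of -0.64 rested on 76, 78 and 110 contacts in growing libraries against 34 and 41 in RIS libraries. Downstream the summed contact was 0.519, 0.541 and 0.531 against 0.473 and 0.505, a log2 difference of -0.12. In each case the groups did not overlap, and an exact permutation test of 3 against 2 libraries cannot give a p below 0.1. The bins flanking IL6 moved in the same direction. Middle contact was lower in RIS by an adjusted p under 0.05 in the bin before it (-0.49, adjusted p = 0.020) and in the bin after it (-0.40, adjusted p = 0.012, both by limma). In the IL6 domain 4 of 18 bins were lower and 0 higher in this measure, against 11.7% lower and 8.53% higher over all bins, and in the whole window 4 of 63 were lower and 6 higher. The 4 lower bins of the window are those of the domain, namely the IL6 bin, the bins on either side of it and the bin with the start of KLHL7, which encodes an adaptor of a ubiquitin ligase.

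Far contact, the log2 percentage of the bin's contacts on chromosome 7 that lay more than 50 bins away, was 4.04, 4.03 and 4.15 in growing libraries against 3.97 and 3.86 in RIS libraries, and the difference of -0.16 ± 0.08 (SE) did not pass (adjusted p = 0.143, limma), where 34.5% of all bins did. It was -0.07 within the libraries with few duplicates and -0.29 within those with many. Trans contact, the log2 percentage of the bin's contacts with other chromosomes, was 2.88, 2.66 and 2.76 in growing libraries against 3.24 and 2.97 in RIS libraries. It rose by 0.33 ± 0.10 (SE, adjusted p = 0.0052, limma), but 69.1% of all bins rose in this measure, with a median of 0.34. Whole libraries had 7.04 to 7.56% trans contacts in growing and 9.60 to 9.81% in RIS cells, and the part of this in the IL6 value was not tested. The IL6 difference was 0.47 within the libraries with few duplicates and 0.20 within those with many, and without RIS replicate 1 the adjusted p was 0.167. Directionality, the log2 ratio of downstream over upstream contact up to 50 bins away, was 0.75, 0.82 and 0.78 against 0.78 and 0.74, and the groups overlapped (adjusted p = 0.831, limma, with 16.3% of all bins called).

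The contacts of the IL6 bin were also summed by domain, a split chosen after seeing the data, for which the exact permutation test cannot pass. Observed over expected contact of the IL6 bin with the other bins of its domain was 1.55, 1.56 and 1.52 in growing libraries against 1.66 and 1.58 in RIS libraries. With the upstream domain, chr7:22160001-22520000, the values were 0.177, 0.159 and 0.140 for growing against 0.103 and 0.132 for RIS. The RIS values were just above the growing values in the IL6 domain and below them in the upstream domain, where they rest on 52, 56 and 47 contacts against 21 and 34. With the downstream domain, chr7:23320001-23560000, the groups overlapped, at 0.749, 0.698 and 0.738 against 0.769 and 0.671. They also overlapped for the next domains downstream.

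**Figure D3:**
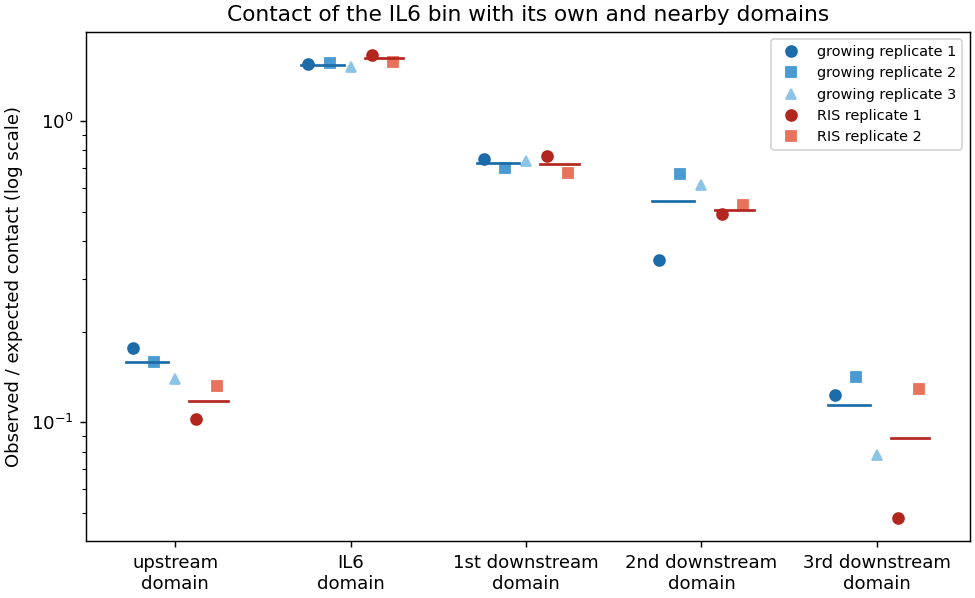
Observed over expected contact of the IL6 bin (y axis, log scale) with its own domain and 4 nearby domains, 1 point for each library and a line at each group's mean. RIS libraries lie below growing libraries for the upstream domain and just above them for the IL6 domain, and the groups overlap for the downstream domains.

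For the whole IL6 domain, contact with the upstream domain was lower in RIS. Contact between the IL6 domain and the upstream domain, as log2 mean observed over expected contact, was -1.19, -1.15 and -1.28 in growing libraries against -1.55 and -1.48 in RIS libraries. It fell by 0.31 ± 0.06 (SE, adjusted p = 0.0041, limma over 3869 adjacent pairs of domains). Of all adjacent pairs 40.8% were called, 21.0% as lower in RIS, so a fall of this kind was common. The difference was -0.38 within the libraries with few duplicates and -0.20 within those with many, and it stayed past the threshold under every alternative tried. Contact with the downstream domain was -0.42, -0.46 and -0.40 in growing libraries against -0.31 and -0.35 in RIS libraries. The groups did not overlap, but the difference of 0.10 ± 0.05 (SE) did not pass (adjusted p = 0.128, limma). Contact inside the IL6 domain was 0.70, 0.69 and 0.70 against 0.73 and 0.74, a difference of 0.04 ± 0.02 (SE, adjusted p = 0.203, limma), in a test that called 50.1% of domains. With the borders of the mean RIS map, which make the IL6 domain shorter, contact inside it passed at 0.12 (adjusted p = 0.012, limma) and contact with the domain then downstream was -0.05 (adjusted p = 0.430, limma). The border that shortens the domain was picked on the RIS libraries themselves, which favours more contact inside it in RIS. Among single libraries it was found in RIS replicate 1 only, so this pass is no independent support.

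Borders of the IL6 domain kept their positions in RIS. At the upstream border the insulation score was -2.33, -2.38 and -2.38 in growing libraries against -2.43 and -2.54 in RIS libraries. It was lower in RIS by 0.12 on the log2 scale (SE 0.04, adjusted p = 0.028, limma), which corresponds to less contact across the border. Because 58.5% of all bins were called in this test, 24.5% as lower, nothing particular to this border is read from the call. The adjusted p rose to 0.083 without growing replicate 1, 0.053 without growing replicate 2, 0.223 without RIS replicate 2, and 0.197 with a trend on the mean. The difference was -0.07 within the libraries with few duplicates and -0.16 within those with many. At the downstream border the score was -0.72, -0.68 and -0.71 in growing libraries against -0.57 and -0.67 in RIS libraries, a difference of 0.09 ± 0.04 (SE, adjusted p = 0.080, limma). It was 0.14 without RIS replicate 2, which passed (adjusted p = 0.022), and 0.03 without RIS replicate 1. Within the libraries with few duplicates it was 0.14 and within those with many 0.04. Borders were chosen as minima of the growing map, a choice that by itself favours higher scores in RIS, the direction seen at the downstream border.

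At the IL6 bin the insulation score was 0.47, 0.50 and 0.47 in growing libraries against 0.47 and 0.50 in RIS libraries, and the groups overlapped (difference 0.01 ± 0.03, SE, adjusted p = 0.833, limma). The mean RIS map had an added minimum inside the domain, at chr7:22880001-22920000, 120 kb after IL6 and just beyond TOMM7. It was found in RIS replicate 1 and in none of the other 4 libraries taken singly. The score there was 0.46, 0.46 and 0.45 in growing libraries against 0.40 and 0.46 in RIS libraries, so RIS replicate 1 stood alone and the groups overlapped. Voom called 8 of the 1094 pairs of the window, a lower share than the 1.38% of all pairs it called, and 4 of the 153 pairs inside the IL6 domain, a higher share. Of those 4 calls, 2 joined this bin to the bins 160 and 200 kb after IL6, with log2 differences of -0.32 and -0.52. Its others inside the domain joined the bins 200 and 160 kb upstream to each other (0.46) and the bins 80 and 40 kb upstream to each other (0.45). Without either RIS library voom called 0 pairs in the window.

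Across the window 24 of 63 bins passed the insulation test, below the 58.5% of all bins. Of these 13 were higher and 11 lower in RIS, where 34.1% of all bins were higher and 24.5% lower. Within the IL6 domain 7 of 18 bins were higher and 0 lower, a run from 240 to 480 kb after IL6 that holds the starts of HYCC1, KLHL7, NUP42 and GPNMB. The largest rise was 0.16 at the KLHL7 start (adjusted p = 0.0054, limma). Farther downstream, from 760 to 1080 kb after IL6, a run of 9 bins fell, by up to 0.37 on the log2 scale at chr7:23760001-23800000. The count of higher bins was not stable: it was 1 without RIS replicate 1, 2 without growing replicate 2 and 6 without growing replicate 1.

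**Figure D4:**
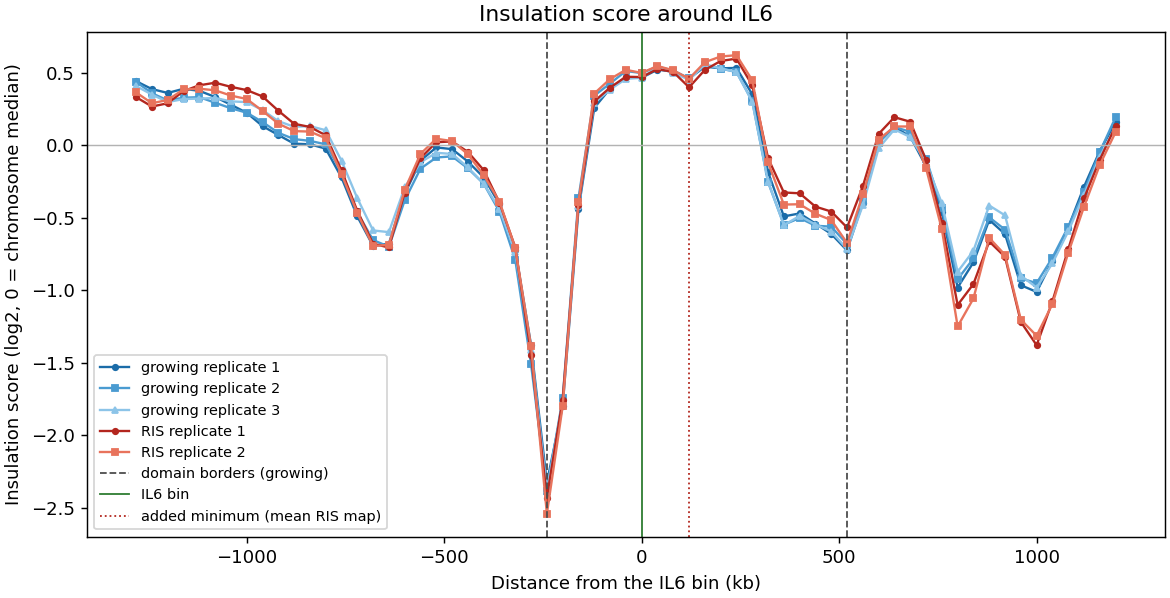
Insulation score (y axis, log2, 0 is the chromosome median) against distance from the IL6 bin (x axis, kb) in each library. Dashed lines mark the domain borders of the growing map, where all 5 libraries have minima, and the dotted line marks the minimum added in the mean RIS map, where RIS replicate 1 alone dips.

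IL6 stayed deep in the A compartment in both conditions, with a lower score in RIS. The A/B score is the leading component of the contact correlation matrix in 120 kb bins, scaled to a standard deviation of 1 on each chromosome, with values above 0 on the gene-rich A side. In the bin that holds IL6, chr7:22680001-22800000, the score stood at 1.56, 1.66 and 1.64 in growing against 1.33 and 1.42 in RIS libraries. The groups did not overlap, and the difference was -0.24 ± 0.06 (SE, adjusted p = 0.015, limma). The test called 46.5% of all bins, 25.5% as lower in RIS. The difference was -0.28 within the libraries with few duplicates and -0.22 within those with many. The adjusted p was 0.124 without RIS replicate 1 and 0.056 without RIS replicate 2. A direct ratio of contact with A over B bins, on the log2 scale, gave 2.75, 3.01 and 2.65 in growing libraries against 2.60 and 2.80 in RIS libraries, so there the groups overlapped (adjusted p = 0.576, limma, with 48.6% of all bins called). The ratio differed in direction between the duplicate classes, at -0.28 with few and 0.14 with many.

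Other bins of the window shared the lower score. In the window 12 of 21 such bins were lower in RIS and 0 were higher, against 25.5% lower and 21.0% higher over all bins. They lay on the A side at IL6 and on the B side upstream alike. The bin before that of IL6, with the farther enhancer region, fell by 0.22 and the bin after it, with TOMM7, by 0.16. In the B stretch between the DNAH11 and CDCA7L starts, the score fell by up to 0.37. The number of lower bins dropped to 1 without RIS replicate 1, to 2 without RIS replicate 2 and to 7 without growing replicate 2. No bin of the IL6 domain had a mean score below 0 in either group.

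**Figure D5:**
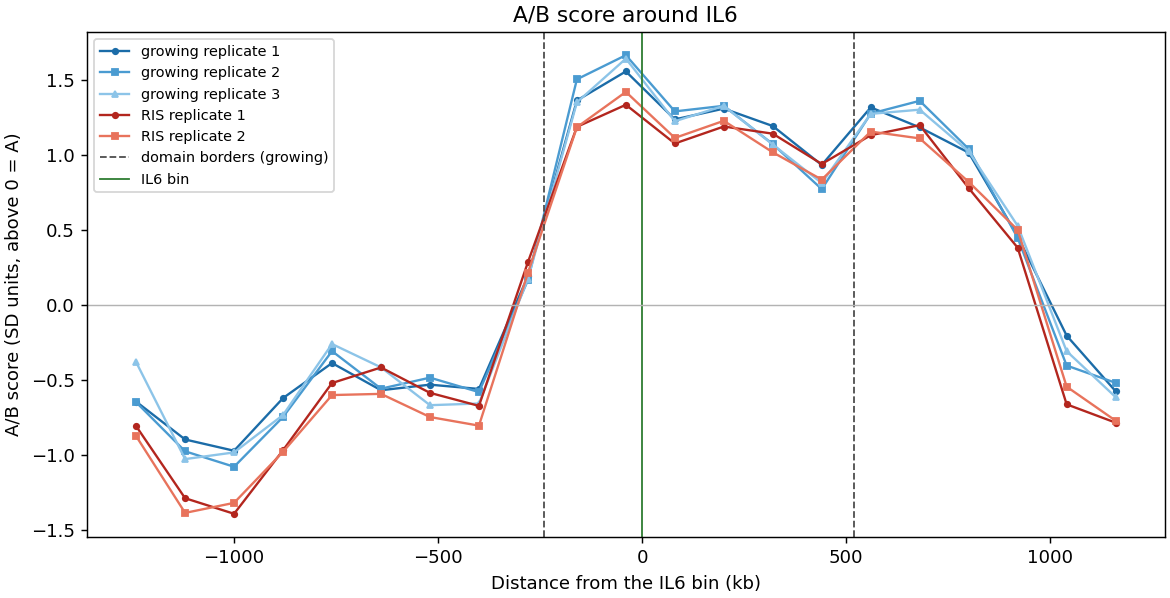
A/B score (y axis, in standard deviations, above 0 on the A side) of 120 kb bins against distance from the IL6 bin (x axis, kb) in each library. The IL6 bin is the highest point of the window in all 5 libraries, and the RIS libraries (red) lie below the growing libraries (blue) there.

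The values at the 16 protein-coding genes that start in the window are given in the same measures. Middle contact was lower in RIS at 3 of the 16, in 2 bins, against 11.7% of all bins. They were IL6, STEAP1B in the same bin, and KLHL7 (-0.25, adjusted p = 0.030). It was higher at 4, against 8.53% of all bins, all beyond the adjacent downstream domain: TRA2A, a splicing factor (0.29, adjusted p = 0.049), CCDC126 (0.33, adjusted p = 0.019), FAM221A (0.25, adjusted p = 0.033) and STK31, a germline kinase (0.28, adjusted p = 0.026, all by limma). At the same 4 genes the insulation score fell, by 0.20 to 0.28 on the log2 scale. It rose at HYCC1, KLHL7, NUP42, GPNMB, a transmembrane glycoprotein, and MALSU1, a mitochondrial ribosome factor, by 0.09 to 0.16. These 4 lower and 5 higher of 16 are near the shares over all bins, 24.5% lower and 34.1% higher. The remaining starts were those of DNAH11, CDCA7L, RAPGEF5, TOMM7 and IGF2BP3. The A/B score fell at 8 of the 16 starts and rose at 0, where 25.5% of all bins were lower and 21.0% higher. These 8 starts lie in 6 bins, since IL6 shares its bin with STEAP1B and TRA2A with CCDC126, and without RIS replicate 1 the number of lower bins in the window was 1, as given above. At IL6 and STEAP1B both middle contact and A/B score fell, while the insulation difference was 0.01.

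Genes of the IL6 pathway elsewhere in the genome were read in the same fits. Their lists were drawn up for this work with earlier results of these data known, so the counts are descriptions. Calls at the listed genes were not repeated with a library left out, a change under which the middle contact call at IL6 was lost. Of 11 inducers of IL6, 9 could be measured for middle contact, and 6 were lower and 0 higher in RIS, with a median of -0.34 against -0.01 over all bins. The background share of lower bins was 11.7%. Those that fell were IL1A (-0.57), IL1R1 (-0.27), MYD88 (-0.53), IRAK1 (-0.39), NFKB1 (-0.34) and TNF (-0.34). Their adjusted p ranged from 0.011 at IRAK1 to 0.043 at IL1R1 (limma). These genes encode an interleukin-1, its receptor, adaptor and kinase, an NF-kB subunit and tumour necrosis factor. IL1B, next to IL1A, had -0.64 ± 0.23 (SE) and did not pass (adjusted p = 0.086, limma). Of 7 IL6 family cytokines, 5 were measured and 3 were lower, which were LIF and OSM in a shared bin (-0.33) and IL27 (-0.46). Of 10 genes of the receptor and its signalling, 6 were measured and 0 were called, among them IL6ST with 0.10 ± 0.06 (SE, adjusted p = 0.294, limma). Of 22 other genes of the secretory phenotype, 16 were measured, and 4 were lower and 1 higher. Genes not measured lay in bins with low coverage. With a lower coverage limit, chosen after seeing the data, middle contact could be read by limma at IL6R (-0.36, adjusted p = 0.042), TYK2 (-0.24, adjusted p = 0.441), STAT3 (0.25, adjusted p = 0.329) and PTPN11 (-0.32, adjusted p = 0.198) of the receptor and signalling list. Among the inducers it was -0.73 at RELA (adjusted p = 0.025) and 0.09 at CEBPB (adjusted p = 0.815), and among the cytokines -0.36 at IL11 (adjusted p = 0.030) and -0.29 at CLCF1 (adjusted p = 0.052, all by limma).

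In A/B score these genes moved both ways, in a test that called 46.5% of all bins. Of 8 receptor and signalling genes measured, 3 were lower and 2 higher. IL6ST fell by 0.27 (SE 0.05), ADAM17 and SOCS3, an inhibitor of the pathway, also fell, and the kinase genes JAK1 and JAK2 rose by 0.56 and 0.15. Of 10 inducers measured, 4 were lower and 2 higher. IL1A and IL1B, which share a bin, fell by 0.32 (SE 0.05), as did CEBPB and TNF by 0.28 and 0.21, whereas IRAK1 and GATA4 rose by 0.32 and 0.22. Of 20 other genes of the secretory phenotype, 6 were lower and 1 higher, and of 5 family cytokines 0 were called. Over 6 measures of difference, each divided by its standard deviation over all bins, the listed genes outside the window nearest to IL6 were IL1R1 at a distance of 1.24, ADAM17, the protease that sheds the IL6 receptor, at 1.81, and IL1A at 1.97. IL6 and IL1R1 shared a lower middle contact, which is among the measures that picked IL1R1. At IL1R1 the A/B difference of -0.09 ± 0.06 (SE) did not pass (adjusted p = 0.218, limma). Near contact (0.15, adjusted p = 0.034) and insulation (0.085, adjusted p = 0.038, both by limma) were called as higher at IL1R1 and were not called at IL6. For ADAM17 the A/B score was lower (-0.32) with a middle contact difference of 0.03 ± 0.08 (SE, adjusted p = 0.844, limma).

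The 4 capture libraries, 2 growing and 2 RIS, listed values for 5904 to 5910 bins of 10 kb, and 0 of their values touched any of the 252 bins of the window. No comparison at IL6 could therefore be made with capture Hi-C.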

How the data were processed

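The authors aligned reads to hg19 with HiC-Pro, having used FastQC, and deposited contact signal after ICE balancing, with a value for each bin pair of a library. Bins measured 40 kb in Hi-C, whereas capture Hi-C had bins of 10 kb. Each pair, listed in both orientations, was used once. A single factor per bin returned whole contacts for 100% of the Hi-C values, within the larger of 0.05 contacts and 0.5% of the value, and these gave the depth. Bins needed 25% of the median coverage in every library.

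Pairs 1 to 50 bins apart with a mean scaled value of at least 5 were tested on log2(value + 0.5) after cyclic loess with limma 3.58.1 (R 4.3.3), and bins and domains likewise without loess, with Benjamini-Hochberg adjustment at 5% over each whole table. Borders had a prominence of at least 0.1. The exact permutation test for a single value was two-sided.

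The genes named were IL6, those starting in the window, the 5 strongest partners, the 3 IL6 pairs with the smallest p in each direction, the 3 listed genes nearest to IL6, IL6R, IL6ST, IL1A and IL1B; all other listed genes were named after their values were seen. The locus and the lists were chosen with earlier results of these data known. Gene positions came from GENCODE on GRCh37, and sequences from GRCh37 and RefSeq. Python 3.11.15 served for the maps. Alternatives are given in the closing section.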

Additional observations from a re-analysis of the deposited data

How the results depend on the processing

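Alternatives covered the variance prior, input, normalisation, pseudocount, minimum value, distance, bin size, window, borders, blocks and each library left out. Those on voom without a library, voom with duplicate class, and a lower coverage limit were chosen after seeing the data. No pair of the IL6 bin was called in any alternative other than voom without growing replicate 3 and voom with the duplicate class as a block, which called 1 higher each, and voom without a library gave 0 to 1. In the IL6 domain voom called 2 higher and 2 lower, 0 to 2 of each without a library, 6 higher and 3 lower with the duplicate class, and bins of 80 kb gave 1 higher. In the window voom called 4 and 4, without a library 0 to 6 higher and 0 to 5 lower, and with the duplicate class 10 and 5. Bins of 80 kb gave 2 higher and 1 lower there, and limma without a library 0 higher and 0 to 2 lower. Over all pairs limma called 1 higher and 7 lower, but 0 without the trend (197909 at an unadjusted p under 0.05), 0 without any growing library, 11 and 649 without RIS replicate 1, 419 and 6554 without RIS replicate 2, 209 and 167 at a minimum of 20, and 8325 and 9868 in 80 kb bins. Voom called 16621 and 9033. The cause was not tested.

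Near contact, not called, was -0.00055 with the replicate block, and between -0.00055 and 0.042 without a library. Middle contact lost its call with a trend (-0.35), the replicate block (-0.28) and recovered contacts (-0.34), and without a library ranged from -0.43 to -0.28. Trans contact ranged from 0.20 to 0.47 and insulation at IL6 from -0.0059 to 0.023. The upstream border lost its call with a trend (-0.12) and with 8 bins (-0.14), and ranged from -0.18 to -0.066. The downstream border passed with the duplicate class as a block (0.10), was -0.028 at the border of the mean RIS map, and ranged from 0.034 to 0.14, passing without RIS replicate 2. Higher insulation bins in the window numbered 3 with 20 bins and 7 with the lower coverage limit, and 1 to 13 without a library. The A/B score ranged from -0.29 to -0.20, and the contact ratio gave -0.11. Lower A/B bins numbered 7 by the ratio, 6 in 200 kb bins, and 1 to 12 without a library. With borders of the mean RIS map, contact inside the IL6 domain passed at 0.12 and contact downstream was -0.050. Those borders were picked on the RIS libraries, so that pass is no independent support.

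Replicate numbers are shared by 2 growing and 2 RIS libraries, and nothing in the labels pairs them. Deviations of same-numbered libraries from their group means had correlations of 0.0046 and -0.0013. With 2 RIS libraries the RIS deviations are mirror images, so these values cannot tell whether libraries were made together. Growing replicate 3 alone has its number, so for values of single bins the replicate block gives the same difference as leaving it out. The replicate block moved the calls over all pairs to 25 higher and 23 lower, left 0 at IL6, and changed the middle contact call alone. Leaving out a RIS library leaves 1, which limma takes to vary like the growing libraries. Capture Hi-C alternatives had no value to compute. Depth is a limit for middle contact, which rested on 152 to 345 contacts a library.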
